A study of Mus musculus with 10 samples.

Results

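Doxycycline (DOX) was compared with no DOX in mouse embryonic stem (ES) cells that had been without 2iL for 96 h. The comparison took every library that the labels place in either group: 3 with DOX (exp1_1, exp2_1 and exp1_2) and 3 without (exp1_1, exp1_2 and exp2_2), 6 of the 10 libraries of the series. All 6 came from E14 cells that carry, by stable transfection, a construct from which DOX induces Esrrb. These cells had been kept in N2B27 medium with 2iL, that is LIF together with CHIR99021 at 3 µM, which blocks GSK3, and PD0325901 at 1 µM, which blocks MEK. They were plated as single cells, changed a day later to N2B27 alone or N2B27 with DOX, and collected after 96 h. The other 4 libraries are the same line kept in 2iL without DOX, and they are used here only for the estimate of the spread and as a reference level. None of the 10 libraries is labelled as a line without the construct or as cells with DOX in 2iL, so what DOX does by itself and what the construct does cannot be told apart. The titles number 2 experiments without saying whether each library is a culture of its own. The p-values thus cover the spread between these samples, which may be technical. Reads were counted at 3′ ends of polyA RNA. Levels are in CPM, read counts scaled to the size of the library with TMM factors. Single values are given in the order exp1_1, exp2_1, exp1_2 with DOX and exp1_1, exp1_2, exp2_2 without DOX.

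Esrrb is an orphan nuclear receptor that binds DNA beside Nanog, Klf4 and Tfcp2l1 at enhancers of naive ES cells. In 2iL it lies downstream of GSK3 inhibition, which relieves its repression by Tcf7l1. When 2iL is withdrawn, ES cells lose the naive factors, pass through a formative state that resembles the early post-implantation epiblast, and in N2B27 move on toward neural fate. ES cells can also take the other lineage of the inner cell mass, the primitive endoderm, which is led by Gata6, Gata4 and Sox17, carries Pdgfra, and lays down a basement membrane. Esrrb is active in other lineages too, among them trophoblast, and its close relatives Esrra and Esrrg drive genes of energy metabolism in muscle and heart.

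One DOX library, exp1_2, had an unlike makeup. It held 1253620 reads in genes (2769071 to 4715450 elsewhere). The ribosomal RNA-overlapping gene Gm42418 took 14.8% of them (3.39% to 6.61% elsewhere), and mitochondrially encoded protein genes took 3.10% (0.559% to 1.27% elsewhere). A list of 16 fibroblast markers summed to 2082 CPM there, against 21.6 and 31.7 CPM in the other DOX libraries and 28.8 to 35.6 CPM without DOX. Reads of a liver gene and of leukocyte genes were also found in it, with 22.1 CPM of Alb, 17.7 of Ptprc and 19.9 of Csf1r, where the other DOX libraries had 0. It also carries a later date than the others in its deposited name. Results below are given with and without exp1_2 where leaving it out ends the call or moves the fold change by over 1.5 times. Of the ES cell markers listed, all 8 passed the filter on low counts, which does not by itself show the identity of the cells. Pou5f1 was found at 19.2 to 58.5 CPM and Sox2 at 128 to 354 CPM over the 6 libraries, exp1_2 included. Endogenous or construct-derived Esrrb reads were not higher with DOX (12.8, 27.04 and 14.7 CPM) than without (23.8, 13.6 and 32.02 CPM), a log2 fold change of -0.32 ± 0.33 (SE; adjusted p = 0.704). No source used here says whether the construct carries the 3′ end that these reads come from, so this value does not check the induction.

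Among 11215 tested genes, 348 passed (edgeR's quasi-likelihood test, adjusted p below 0.05), which is 3.1% of them. With DOX, 242 genes were higher (2.16%) and 106 were lower (0.945%). The called rises had larger fitted changes than the called falls, a contrast that the filter on low counts favours, as given below. At least 4-fold differences were seen for 135 of the 242 and for 26 of the 106, and the median log2 fold change was 2.16 among the called rises and -1.52 among the called falls. The 3 DOX values lay wholly above the 3 values without DOX for 238 of the 242, a pattern that 9.98% of all tested genes showed, and wholly below for 106 of the 106 (8.74% of all tested genes). Of the 242, 47 passed the filter on low counts only through the DOX libraries. Over all tested genes 650 entered in this way. Such entry favours genes that are higher with DOX and low without it, without fixing a call. The sizes of the rises above include these 47 genes and were not compared without them. Among the 242, 10 had no read at all without DOX.

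Without exp1_2, 260 of 11635 tested genes passed (2.23%), 187 higher (1.61%) and 73 lower (0.627%). Of the 242 rises 161 were kept, and of the 106 falls 60 were kept. None of the 348 changed direction. Calls that were made in every one of 10 fits, each without 1 of the 10 libraries, numbered 97 among the rises and 26 among the falls.

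**Figure D1:**
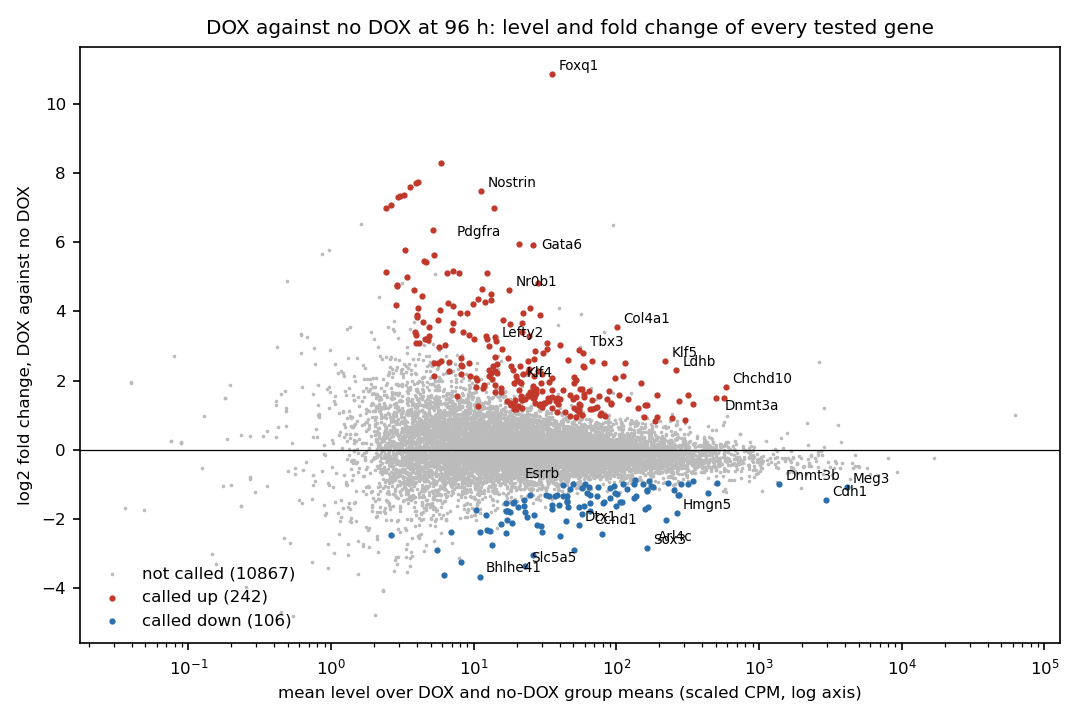
Log2 fold change with DOX against no DOX (vertical axis) against the mean of the DOX and no-DOX group means in scaled CPM (horizontal log axis), 1 point per tested gene, with the 242 called rises in red, the 106 called falls in blue and the others in grey. The fitted rises reach a log2 fold change of 10.86 (Foxq1), and most of the rises lie below 100 CPM. Foxq1 had no read without DOX, so 10.86 is a fitted value, and its reads give only a bound of at least 262-fold. The falls go no further than -3.66 (Bhlhe41) and include the abundant Cdh1, Meg3 and Dnmt3b.

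Experiment 1 had 2 libraries in each 96 h group and experiment 2 had 1, so the first could be tested and the second used as a separate look at the same genes. Within experiment 1, 108 of 11309 tested genes passed (0.955%), 94 higher (0.831%) and 14 lower (0.124%). Of these 94, 92 were also higher in the DOX library of experiment 2, and 82 were higher by over 2-fold on the log2(CPM + 1) scale, as against 13.2% of all genes tested. Of the 14, 13 were also lower there, 12 of them by over 2-fold, as against 10.4% of all genes tested. The median difference in experiment 2 was 2.25 for the rises, -2.11 for the falls and 0 for all tested genes. Experiment 2 has 1 library on each side, so these values carry no test. The libraries of experiment 1 include exp1_2, and those of experiment 2 do not. A test of the difference between the experiments called 0 genes (edgeR's quasi-likelihood test), with 614 genes at an unadjusted p below 0.05 (5.47% of 11215) and a lowest adjusted p of 0.857. With 1 library a side in experiment 2, that does not show that the effects were equal.

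**Figure D2:**
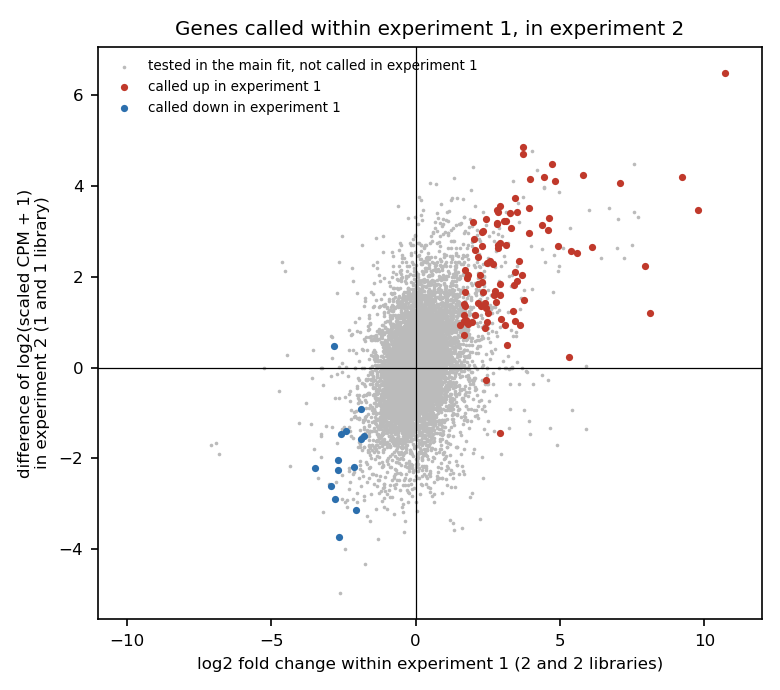
Log2 fold change within experiment 1 (horizontal axis, 2 libraries in each group) against the difference of log2(scaled CPM + 1) in experiment 2 (vertical axis, 1 library in each group), 1 point per gene, with genes called within experiment 1 in red (higher) and blue (lower). Nearly all red points lie above 0 and nearly all blue points below it, while the grey points, genes not called in experiment 1 (those tested with all libraries), scatter around 0.

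Many naive pluripotency genes were higher with DOX, by unequal amounts. Of 26 listed, all measured, 12 rose and 0 fell, with a median log2 fold change of 1.28 against -0.02 over all tested genes. Over all tested genes 2.16% rose and 0.945% fell, the shares to set beside each list count below. Without exp1_2 the count was 12 again, of the same genes, and the median was 0.93. Klf5, a Krüppel-like factor of the naive network, held 229.8, 286 and 612 CPM with DOX and 83.1, 49.8 and 58.2 CPM without, and all 3 DOX values were higher. Its log2 fold change was 2.56 ± 0.33 (adjusted p = 7.07e-05), which set it among the most abundant rising genes, at a level near that of cells in 2iL (311 ± 49.4 CPM, mean ± SD, n = 4, as for the 2iL levels below). The exp1_2 value was the highest of the 3, and without that library the log2 fold change was 2.02.

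Nr0b1 (Dax1), a nuclear receptor corepressor that partners Esrrb in ES cells, had the largest rise of the naive list. It stood at 19.2, 28.3 and 55.3 CPM with DOX against 2.35, 1.08 and 0.588 CPM without, a log2 fold change of 4.62 ± 0.55 (adjusted p = 3.66e-05), and its level in 2iL was 20.2 ± 6.15 CPM. Jam2, an adhesion molecule of tight junctions that marks naive cells, rose by 4.49 ± 0.55 on the log2 scale, from 0.294, 2.16 and 0.588 to 15.2, 40.6 and 20.6 CPM. Dppa5a, an RNA-binding protein of the germ line and inner cell mass, went from 30.5, 20.9 and 51.7 to 130.5, 336 and 118 CPM (2.51 ± 0.41). In each case the 2 groups did not overlap.

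The methylcytosine oxidase gene Tet2 rose from 2.94, 2.803 and 2.06 to 14.7, 27.7 and 34.6 CPM (log2 fold change 3.25 ± 0.49, adjusted p = 0.000511), close to its 2iL level of 28.2 ± 11.9 CPM. Crxos, a homeobox gene of early embryos that lies opposite Crx, rose from 6.46, 9.06 and 6.46 to 49.9, 59.004 and 27.3 CPM, and Tcl1, a coactivator of Akt, from 10.9, 11.2 and 14.7 to 36.8, 68.8 and 33.9 CPM. Both remained well under their 2iL means of 433 ± 121 and 316 ± 98.8 CPM. Tbx3, Klf4, Zfp42, Tfcp2l1 and Spp1 made up the rest of the 12, with log2 fold changes of 2.89, 2.59, 2.096, 1.702 and 2.25. Tfcp2l1 was lower in exp1_2 than in the other DOX libraries (116, 132 and 44.9 CPM) and had a log2 fold change of 2.03 without it.

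Other naive genes did not pass. Klf2, which depends on MEK inhibition in ES cells, had 47.3, 40.9 and 42.7 CPM with DOX and 59.9, 61.03 and 36.1 CPM without, overlapping values and a log2 fold change of -0.26 ± 0.24 (adjusted p = 0.663), against 260.1 ± 15.9 CPM in 2iL. Fgf4, Dppa2, Dppa4 and Tdh, the threonine dehydrogenase of mouse ES cells, had log2 fold changes of 0.397, 0.68, -0.17 and -0.41, with adjusted p from 0.252 to 0.805. The 12 rises of the list ran from 1.702 to 4.62 on the log2 scale, and 14 members did not pass.

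**Figure D3:**
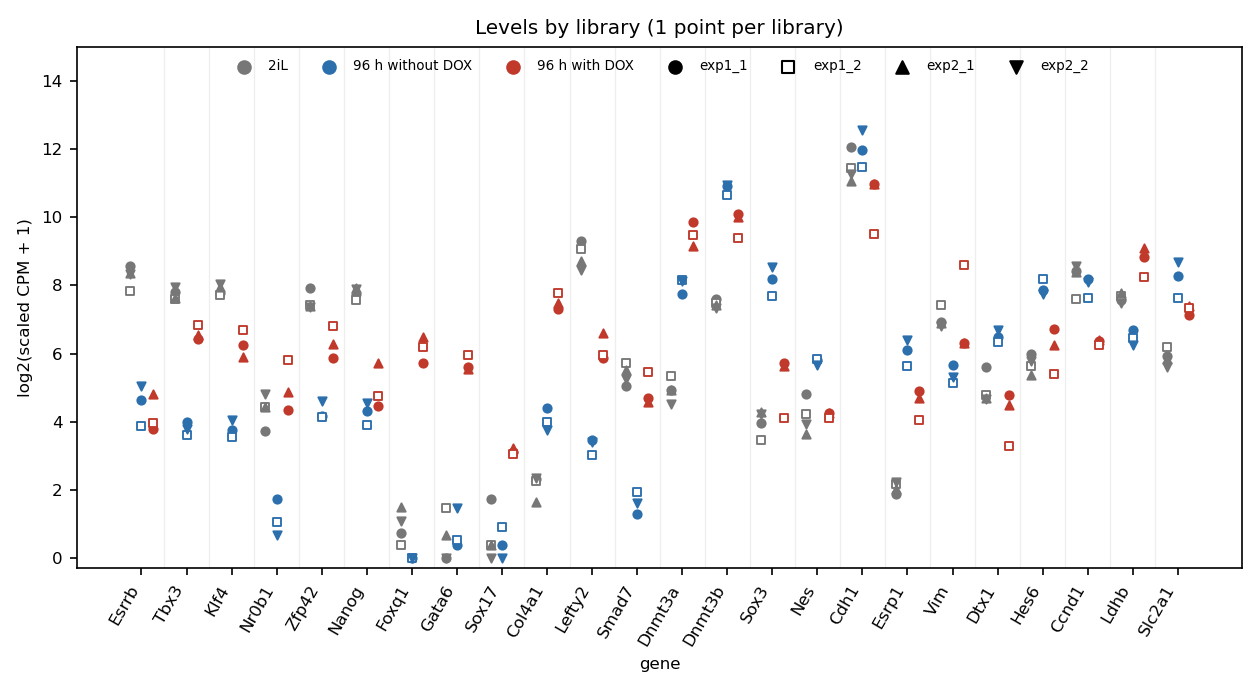
Levels of 24 genes as log2(scaled CPM + 1), 1 point per library, with 2iL in grey, 96 h without DOX in blue and 96 h with DOX in red; the symbol gives the experiment and library number, and open squares are the libraries numbered exp1_2. Tbx3, Klf4, Nr0b1, Foxq1, Gata6, Col4a1, Lefty2 and Ldhb have all red points above all blue points, Sox3, Nes, Cdh1, Dtx1 and Ccnd1 have all red points below, and Esrrb has overlapping red and blue points well below grey.

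Core factors shared by naive and primed cells mostly did not pass. Of 15 general pluripotency genes 2 rose and 2 fell (2.16% and 0.945% of all tested genes did), with a median of 0.17. Tdgf1 (Cripto), a Nodal co-receptor, rose from 27.3, 17.3 and 28.8 to 83.9, 150.3 and 181 CPM (2.497 ± 0.29 on the log2 scale). The falls were Cdh1, described with the junction genes, and Lin28a. Lin28a, the RNA-binding protein that blocks let-7 maturation, fell from 405, 507 and 427 to 289, 214 and 221 CPM (-0.89 ± 0.22, adjusted p = 0.0327), and it lost the call in 6 of the 10 fits that each left out 1 library. Pou5f1 overlapped between the groups (-0.2995 ± 0.36, adjusted p = 0.752). Sox2 was higher in all 3 DOX libraries and missed the threshold (0.84 ± 0.25, adjusted p = 0.0776).

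Formative genes gave calls in both directions. Of 18 measured members of the formative and post-implantation list, 1 rose (Dnmt3a) and 2 fell (Sox3 and Dnmt3b), with a median of -0.52. Over all tested genes 2.16% rose and 0.945% fell. Of the 18, 7 were wholly lower with DOX (8.74% of all tested genes) and 1 wholly higher. Without exp1_2 a further member fell, Sox11, a SoxC factor of neural progenitors (-1.05, adjusted p = 0.0409; 0.0573 with all libraries). Otx2, the homeobox factor that starts the formative program, had 338, 202 and 200.4 CPM with DOX and 235, 309.7 and 247 CPM without, a log2 fold change of -0.09 ± 0.32, and both groups were above 2iL (30.3 ± 15.1 CPM). Pou3f1 overlapped as well (-0.64, adjusted p = 0.368). Sox3, a SoxB1 factor of epiblast and neural plate, was at 51.6, 48.6 and 16.2 CPM with DOX and 289.5, 204 and 370.2 CPM without, a fall in every DOX library (-2.85 ± 0.35, adjusted p = 4.77e-05).

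Among early neural genes only Nes passed. Nes, an intermediate filament of neural progenitors, read 18.3, 18.1 and 16.2 CPM with DOX and 55.2, 56.1 and 49.4 CPM without, a narrow spread on each side (-1.5997 ± 0.33, adjusted p = 0.0084). The median over the 13 measured neural genes was -0.71, with 3 of them wholly lower with DOX (8.74% of all tested genes) and 1 wholly higher. The higher one, Stmn2, a microtubule regulator of growing neurons, had 283, 399 and 286 against 205, 153 and 233 CPM and did not pass (0.71 ± 0.25, adjusted p = 0.145). The largest falls outside the lists included 4 genes with known roles in neural tissue, grouped so after their values had been seen. Irx3, a homeobox factor of the neural tube, fell from 69.9, 37.95 and 97.5 to 10.7, 19.7 and 4.42 CPM (-2.49 ± 0.43). Dpysl5, a collapsin response mediator of growing axons, fell from 43.2, 64.9 and 43.2 to 13.1, 3.995 and 12.5 CPM (-2.38 ± 0.46). Sema3e, a secreted axon guidance cue, went from 7.93, 22.2 and 14.4 to 2.14, 1.84 and 0 CPM (-3.24 ± 0.73), and Doc2a, a calcium sensor of synaptic vesicles, from 57.6, 59.5 and 28.5 to 14.02, 10.1 and 6.63 CPM (-2.19 ± 0.42). All 4 had 2iL means of at most 9.63 CPM, and their means with DOX lay between those of 2iL and those without DOX. Called rises also included genes with roles in neurons, among them Basp1 and Ntn1, described below, and the neurofilament gene Nefl, picked after its call had been seen. The share of neural genes among all calls was not taken.

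Of the primitive endoderm factors, 8 rose from near 0 and Lrp2 did not. Of 12 listed genes 10 were measured and 8 rose, but 9 of the 10 entered the test only through the DOX libraries, so the count describes them and supports nothing by itself. Foxq1 (ENSMUSG00000038415, chromosome 13, 31556134 to 31560976, GRCm38/mm10), a forkhead factor, held 52.05, 88.8 and 72.2 CPM with DOX and no read without, which is at least 262-fold higher against a floor of 3 reads over the group. Gata6 held 47.3, 45.5 and 61.1 CPM against 0.294, 0.431 and 1.76 CPM (5.93 ± 0.67, adjusted p = 2.31e-05). Pdgfra, the receptor of platelet-derived growth factor A that early primitive endoderm carries, held 23.5, 17.8 and 81.8 against 1.47, 0.431 and 0 CPM (5.93 ± 0.88). Pdgfra is also a fibroblast gene, its highest value was in exp1_2, and without exp1_2 its log2 fold change was 4.98 (adjusted p = 0.00469).

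Cubn, the endocytic receptor cubilin, had 3.33, 10.4 and 4.42 CPM and no read without (at least 23.4-fold), and its partner Amn, amnionless, rose from 0.294, 0.431 and 1.18 to 10.7, 12.9 and 13.997 CPM (4.25 ± 0.91). Dab2, an endocytic adaptor, rose from 3.23, 2.803 and 1.76 to 19.01, 28.6 and 51.6 CPM (3.62 ± 0.57). Cubilin, amnionless and Dab2 work in one uptake complex of the extraembryonic endoderm, and Lrp2 (megalin), another part of it, did not pass (-0.45 ± 0.32, 37.8, 48.2 and 32.4 against 56.4, 34.3 and 72.3 CPM).

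Gata4 and Sox17 were low in every library. Gata4 had 3.33, 3.995 and 14.7 CPM with DOX and 3 reads in all without, a ratio of 20.3 (95% exact interval 6.55 to 102). Sox17 had 7.605, 8.297 and 7.37 against 0.294, 0.863 and 0 CPM (4.104 ± 1.104, adjusted p = 0.0463). Without exp1_2 the log2 fold change of Gata4 was 3.71. Both calls were lost without exp1_2 (adjusted p = 0.247 and 0.0952) and in 8 of the 10 fits with a library left out. In bulk RNA, a few cells with high levels and many cells with low levels cannot be told apart, here or for any gene below.

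Genes of differentiated extraembryonic endoderm gave fewer calls. Of 17 visceral endoderm genes 8 were measured and 1 rose (Amn, which entered the test only through the DOX libraries). The median was 1.61, and 6 of the 8 were wholly higher with DOX (9.98% of all tested genes). Rhox5, a homeobox gene of the X chromosome that is also in the list of germline genes, had 961, 924 and 491 CPM with DOX and 407, 305 and 486 CPM without. It missed the threshold with all libraries (0.99 ± 0.28, adjusted p = 0.0558) and passed without exp1_2 (1.24, adjusted p = 0.00258). Apoe, an abundant apolipoprotein of that tissue, had 249.8, 319.9 and 449 CPM with DOX and 233, 249 and 185 CPM without (0.61 ± 0.26, adjusted p = 0.254). Of 13 parietal endoderm genes 8 were measured and 4 rose, 2 of which (Nostrin and Srgn) entered the test only through the DOX libraries. Without exp1_2, 2 of the list rose. Nostrin, an adaptor of endothelial nitric oxide synthase that parietal endoderm expresses, had 16.9, 22.7 and 27.99 CPM with DOX and 1 read in all without, against 183 reads with DOX, a ratio of 238 (95% exact interval 42.1 to 9432) for reads scaled to depth. Srgn, the proteoglycan serglycin, had 3.33, 14.4 and 9.58 CPM with DOX and 2 reads in all without, and it missed the threshold without exp1_2 (adjusted p = 0.0531). Sparc and Vim, 2 further members that rose, are also strong fibroblast genes. Sparc had 555, 439.8 and 1535 CPM with DOX, of which the largest was exp1_2, against 217, 433 and 239 CPM without, and it did not pass without exp1_2 (0.75, adjusted p = 0.219). Vim had 78.9, 78.98 and 386 against 49.9, 34.5 and 38.8 CPM, a log2 fold change of 2.12 ± 0.46 that was 0.94 without exp1_2 (adjusted p = 0.0468). The fibroblast marker sum was 2082 CPM in exp1_2 as given above, and its part in these values was not tested other than by leaving the library out.

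The basement membrane, a sheet of type IV collagen, laminin and nidogen that primitive endoderm lays down, was represented by 22 genes. Of the 21 measured, 6 rose and 1 fell (2.16% and 0.945% of all tested genes did), with a median of 1.11. Without exp1_2, 5 rose and 0 fell, and the median was 1.01. The rises were 5 genes described here and Sparc. Both chains of the main collagen IV trimer rose, though Col4a2 entered the test only through the DOX libraries. Col4a1 held 157, 180.1 and 221 CPM with DOX and 19.97, 14.9 and 12.6 CPM without (3.55 ± 0.29, adjusted p = 3.89e-07), and Col4a2, which is transcribed from the same promoter region in the opposite direction, held 40.2, 37.5 and 85.5 and 2.94, 5.18 and 2.35 CPM (3.902 ± 0.49). Both were low in 2iL, at 3.503 ± 0.909 and 1.21 ± 0.782 CPM, so these levels exceeded those of both other groups.

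Lama1, the laminin alpha 1 chain, rose from 5.87, 5.18 and 5.88 to 22.8, 19.98 and 50.1 CPM (2.42 ± 0.45). Its partner Lamb1 had 156, 176 and 133 against 84.3, 70.7 and 92.8 CPM without overlap but did not pass (0.91 ± 0.33, adjusted p = 0.168). The linker proteins Nid1 and Nid2 rose, Nid2 from 24.96, 17.9 and 17.9 to 49.4, 67.9 and 52.3 CPM (1.48 ± 0.27) and Nid1 from 1.47, 0.863 and 0.881 to 4.75, 6.76 and 27.3 CPM (3.45 ± 0.67, 2.396 without exp1_2). Hspg2, which encodes perlecan, had 48.95, 64.5 and 50.8 against 28.8, 7.33 and 24.1 CPM and missed the threshold (1.46 ± 0.41, adjusted p = 0.0548). Agrn, which encodes agrin, fell from 133, 119 and 190.1 to 77.2, 87.3 and 55.3 CPM and did not pass without exp1_2 (adjusted p = 0.103). Of 12 measured integrin and adhesion genes 0 passed. Among them 2 were wholly higher and 1 wholly lower, shares near those of all tested genes (9.98% and 8.74%). Itga6, a laminin receptor chain, had the lowest adjusted p (288, 233 and 261 against 119, 183 and 135 CPM, 0.84 ± 0.24, adjusted p = 0.0651).

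Epithelial junction genes shifted in both directions. Of 19 measured, 4 fell and 2 rose (0.945% and 2.16% of all tested genes did), with a median of -0.51. Wholly lower were 9 (8.74% of all tested genes) and wholly higher 2. Without exp1_2, 3 fell and 2 rose, and the median was -0.31. Cdh1, E-cadherin, the main adhesion molecule of ES cells and epiblast, held 1997, 2008 and 727 CPM with DOX and 4006, 2854 and 6034 CPM without, so the groups did not overlap (-1.44 ± 0.37, adjusted p = 0.0356). Its mean without DOX was above that in 2iL (2931 ± 954 CPM), but the values overlapped, with 4311 CPM in 2iL exp1_1. No test of that difference is given here. Among the DOX values that of exp1_2 was the lowest. Without exp1_2 the log2 fold change was -1.103 (adjusted p = 0.0497), close to the threshold.

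Esrp1, the splicing regulator of epithelial isoforms, fell from 68.4, 48.3 and 84.3 to 28.8, 25.2 and 15.5 CPM (-1.502 ± 0.32, adjusted p = 0.0107), against 3.24 ± 0.462 CPM in 2iL. The claudins Cldn3 and Cldn7 fell too, from 22.6, 15.3 and 37.9 to 7.13, 4.61 and 5.16 CPM (-2.13 ± 0.45) and from 72.8, 71.8 and 56.99 to 35.9, 16.9 and 17.7 CPM (-1.49 ± 0.38). Cldn7 did not pass without exp1_2 (adjusted p = 0.0903). The rises were Cdh3, P-cadherin, from 10.9, 13.4 and 8.81 to 37.8, 33.5 and 25.05 CPM (1.55 ± 0.36), and Dsp, the desmosomal protein desmoplakin, from 6.17, 10.4 and 6.76 to 31.8, 18.1 and 59.7 CPM (2.19 ± 0.43). Epcam, Tjp1 and Cdh2 (N-cadherin) did not pass, at log2 fold changes of -0.35 ± 0.26, 0.18 ± 0.38 and -0.58 ± 0.63.

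Other falling genes known from polarised epithelia were picked out after their values had been seen, and they are given as a description. Rab25, a small GTPase of apical recycling, fell from 25.5, 43.8 and 22.03 to 11.2, 2.77 and 6.63 CPM (-2.13 ± 0.498). Ap1m2, the epithelial subunit of the clathrin adaptor AP-1, fell from 27.3, 63.4 and 34.1 to 14.7, 8.91 and 9.58 CPM (-1.89 ± 0.43). St14, the membrane protease matriptase, fell from 61.95, 116 and 74.6 to 38.5, 29.5 and 8.84 CPM (-1.65 ± 0.36), Prom1 from 47.3, 55.6 and 60.8 to 23.5, 15.98 and 8.104 CPM (-1.72 ± 0.39), and Podxl, which encodes the apical sialomucin podocalyxin, from 160.03, 87.8 and 205 to 58.5, 66.7 and 17.7 CPM (-1.62 ± 0.39). These 5 calls held without exp1_2, and 4 of the 5 genes, St14 being the exception, had means in 2iL of at most 21.8 CPM, below the level at 96 h without DOX.

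Nodal signalling genes had the highest share of rises among the signalling lists. Nodal is a TGF-beta family ligand that acts through Smad2 and induces its own inhibitors Lefty1 and Lefty2. Of 17 measured, 5 rose and 0 fell (2.16% and 0.945% of all tested genes did), against a list median of 0.20. Without exp1_2, 6 rose and the median was -0.08, of the other sign. The rising members were the inhibitor Lefty2 (57.5, 95.9 and 61.9 against 9.98, 7.12 and 9.69 CPM), the co-receptor Tdgf1, the inhibitory Smad gene Smad7 (24.7, 22.7 and 42.7 against 1.47, 2.803 and 2.06 CPM, 3.75 ± 0.41), the Smad feedback inhibitor Pmepa1 (29.5, 28.6 and 65.6 against 3.52, 5.39 and 11.5 CPM, 2.57 ± 0.44), and Pcsk6 (Pace4), a convertase that processes Nodal (36.6, 72.2 and 66.3 against 8.22, 6.47 and 5.58 CPM, 3.098 ± 0.35). All 5 were called in every one of the 10 fits that left out a library. Nodal itself had 35.6, 80.8 and 19.2 CPM against 29.4, 18.8 and 18.2 CPM and did not pass with all libraries (1.06 ± 0.38, adjusted p = 0.155); it passed without exp1_2 (1.39, adjusted p = 0.0208). The receptor gene Acvr2b and Smad4 did not pass (-0.39 and -0.52).

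Both receptor chains for LIF rose, in a medium without added LIF. Lifr went from 10.9, 4.53 and 10.6 to 34.2, 28.6 and 38.3 CPM (1.97 ± 0.36, adjusted p = 0.00333) and Il6st (gp130), the shared signalling chain, from 8.22, 6.47 and 7.34 to 24.7, 15.98 and 30.2 CPM (1.67 ± 0.36, adjusted p = 0.0112). Their 2iL means were 34.97 ± 6.47 and 33.6 ± 6.76 CPM, so the levels with DOX were near those of 2iL. The other 13 measured genes of the LIF list did not pass, Stat3 (0.88 ± 0.32) and Pim1 (1.299 ± 0.39) among them, and the list median was 0.82.

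Calls came to 2 of 15 measured beta-catenin genes, 1 of 17 ERK feedback genes, 1 of 12 FGF genes and 1 of 13 BMP genes. Over all tested genes 3.1% were called. Dkk1, a secreted inhibitor of the Wnt co-receptors, had 10.2, 13.5 and 7.37 CPM with DOX and 2 reads in all without, a read ratio of 62.9 (95% exact interval 16.96 to 527). Ccnd1, cyclin D1, fell from 292, 196 and 276 to 81.99, 82.97 and 75.9 CPM (-1.66 ± 0.26), and these were the only 2 calls among 15 beta-catenin and TCF genes. Dkk1 entered the test only through the DOX libraries. Phlda1, an early response gene of growth factor signalling, rose from 11.7, 13.6 and 18.8 to 109, 122 and 72.9 CPM (2.79 ± 0.39), above its 2iL level of 16.9 ± 8.92 CPM. The other 16 measured ERK feedback genes did not pass, including Dusp6 (0.23 ± 0.27), Spry2 (0.07 ± 0.26) and Egr1 (-0.39 ± 0.88). Flrt3, a membrane protein that binds FGF receptors, was the sole FGF-list gene to pass (33.7, 25.2 and 35.4 against 5.58, 7.76 and 5.58 CPM, 2.297 ± 0.51). Bmp4, a ligand that sustains ES cells with LIF, was the sole call among 13 BMP genes (9.98, 13.8 and 44.2 against 3.23, 1.73 and 3.23 CPM, 2.99 ± 0.53), with 2.13 without exp1_2.

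Calls among Notch genes were falls. Of 16 measured, 3 fell (0.945% of all tested genes did) and 0 rose. The median was -0.88, and 7 of the 16 were wholly lower with DOX (8.74% of all tested genes). Dtx1 and Dtx4 encode Deltex ubiquitin ligases that bind the Notch intracellular domain. Dtx1 fell from 88.1, 79.8 and 102 to 26.4, 21.5 and 8.84 CPM (-2.19 ± 0.35, adjusted p = 0.000896) and Dtx4 from 104, 92.3 and 74.6 to 38.5, 16.9 and 18.4 CPM (-1.84 ± 0.33, adjusted p = 0.00273). Hes6, a basic helix-loop-helix factor that antagonises Hes1 and accompanies neurogenesis, fell from 234, 289 and 213 to 105, 74.7 and 41.3 CPM (-1.71 ± 0.29, adjusted p = 0.00142). All 3 were called without exp1_2 as well, where the list median was -0.98.

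Of 10 measured genes of retinoic acid handling 2 rose and 0 fell (2.16% and 0.945% of all tested genes did), with a median of -0.19. Cyp26a1, the enzyme that breaks retinoic acid down and a direct target of its receptors, had 8.79, 8.91 and 6.63 CPM with DOX and no read without (at least 32.4-fold). It entered the test only through the DOX libraries. Rara, a retinoic acid receptor, rose from 8.81, 6.04 and 12.3 to 26.4, 45.8 and 30.2 CPM (1.92 ± 0.39), while Rarg and Rxra did not pass (-0.04 ± 0.45 and -0.33 ± 0.34). Among 19 measured nuclear receptors and cofactors only Nr0b1 and the coactivator Ncoa3 rose. Ncoa3, which binds Esrrb, had 67.3, 62.7 and 58.9 against 26.4, 43.99 and 24.97 CPM (0.98 ± 0.27, adjusted p = 0.0498, and 0.0563 without exp1_2). Its call was lost in 9 of the 10 fits that left out a library. Tead4, a factor of trophoblast and of the Hippo pathway, was the sole call of 10 measured trophoblast genes (6.65, 13.5 and 10.3 against 0.587, 0.863 and 2.35 CPM, 2.98 ± 0.69).

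The 2 de novo DNA methyltransferase genes moved in opposite directions. Dnmt3a, which is low in 2iL (30.1 ± 7.11 CPM), held 939, 569 and 716 CPM with DOX and 216, 287 and 277 CPM without, a further rise of 1.51 ± 0.26 on the log2 scale (adjusted p = 0.00155). Dnmt3b fell from 1928, 1597 and 1971 to 1096, 1022 and 670.4 CPM (-0.98 ± 0.25, adjusted p = 0.0304) and stayed far above 2iL (176 ± 14.7 CPM). The Dnmt3b call was lost in 5 of the 10 fits that left out a library, and the Dnmt3a call in 0. Tet1, an oxidase of methylcytosine like Tet2, rose from 70.8, 131 and 87.3 to 191, 179 and 504 CPM (1.58 ± 0.35), but its highest value was in exp1_2 and it missed the threshold without it (0.94, adjusted p = 0.0592). The cofactor Dnmt3l, the maintenance enzyme Dnmt1 and Uhrf1 did not pass (-0.17 ± 0.32, -0.28 ± 0.21 and -0.16 ± 0.25). No methylation was measured.

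Imprinted genes gave 3 calls among 16 measured, where 3.1% of all tested genes were called. H19, a maternally expressed noncoding RNA that is abundant in endoderm, rose from 34.9, 33.2 and 44.7 to 112, 121 and 245 CPM (2.07 ± 0.32, adjusted p = 0.000739). Meg3, the maternally expressed noncoding RNA of the Dlk1-Dio3 region, fell from 4735, 5479 and 6538 to 3152, 2768 and 1978 CPM (-1.08 ± 0.28, adjusted p = 0.0346). Peg3, a paternally expressed zinc finger gene, fell from 129, 109.98 and 122 to 47.8, 34.1 and 44.2 CPM (-1.52 ± 0.28, adjusted p = 0.00379). The Meg3 call was lost in 6 of the 10 fits that left out a library, and those of H19 and Peg3 in 0.

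Genes of the 2-cell-like state, a rare condition in ES cultures, were too low to test: 0 of 9 found in the files passed the filter. Zscan4c had 19 reads with DOX and 1 without, Zscan4d 29 and 1, Usp17lc 26 and 1, and Zfp352 21 and 0. The DOX reads of Zscan4d came mostly from exp2_1 (0.951, 7.68 and 0 CPM). Zscan4 and Usp17 genes have near-identical copies, and reads that align to several places were not counted, so these values are uncertain.

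Energy metabolism showed a few large changes within lists that otherwise did not pass. Ldhb, the lactate dehydrogenase subunit that favours the use of lactate, held 455, 545 and 304 CPM with DOX and 102, 86.3 and 75.2 CPM without (2.31 ± 0.25, adjusted p = 2.01e-05), above 2iL (199 ± 17.3 CPM). Hk1, a hexokinase, rose from 20.6, 12.7 and 31.4 to 63.2, 62.1 and 52.3 CPM (1.47 ± 0.29). Slc16a3, the lactate exporter Mct4, fell from 289.8, 559 and 307 to 233, 140.1 and 89.1 CPM (-1.31 ± 0.32), and the glucose transporter gene Slc2a1 from 308, 196 and 412 to 139.97, 169 and 161 CPM (-0.96 ± 0.26). Both falls missed the threshold without exp1_2 (adjusted p = 0.0717 and 0.0559). The Slc16a3 call was lost in 3 of the 10 fits that left out a library, and the Slc2a1 call in 9. Ldha, the other lactate dehydrogenase subunit, was lower without passing (528, 497 and 274 against 765, 925 and 687 CPM, -0.87 ± 0.28, adjusted p = 0.11). The median over all 20 genes of the glycolysis and lactate list, these 5 included, was 0.05.

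Nuclear genes of oxidative phosphorylation had 1 call among 39, Cox6a1 (344, 443 and 391 against 227, 214 and 206 CPM, 0.86 ± 0.22), and a median of 0.08. The Cox6a1 call was lost in 6 of the 10 fits that left out a library. The mitochondrially encoded genes mt-Co1 and mt-Nd5 passed with all libraries (1.33 ± 0.304 and 1.59 ± 0.39) but not without exp1_2 (adjusted p = 0.0634 and 0.219), where mt-Nd5 had a log2 fold change of 0.65. In that library mitochondrially encoded protein genes took 3.10% of reads. Chchd10, a nuclear gene for a protein of mitochondrial cristae, was the most abundant gene to rise, from 301, 248 and 227 to 797, 895 and 1055 CPM (1.82 ± 0.24, adjusted p = 0.000101), and its level with DOX was near that of 2iL (706 ± 96.4 CPM).

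Rising genes also included 6 with known roles in striated muscle or heart; apart from Pvalb they were chosen after their values had been seen, and no list was fixed for them. Tnni3, cardiac troponin I, rose from 1.17, 7.55 and 4.41 to 54.9, 44.6 and 33.2 CPM (3.299 ± 0.58). Pvalb, the calcium buffer parvalbumin of fast muscle, had 31.6, 16.6 and 34.6 CPM with DOX and 2 reads in all without, a read ratio of 152 (95% exact interval 41.6 to 1261). It entered the test only through the DOX libraries. Fbp2, the muscle fructose-bisphosphatase, rose from 1.17, 1.94 and 4.99 to 46.1, 48.2 and 29.5 CPM (3.94 ± 0.57). Eno3, the muscle enolase, rose from 21.1, 12.5 and 25.9 to 69.4, 84.8 and 40.5 CPM (1.73 ± 0.35). Cox7a1, a heart and muscle subunit of cytochrome c oxidase, rose from 13.5, 13.6 and 7.05 to 44.9, 55.01 and 21.4 CPM (1.85 ± 0.36). Fabp3, the heart fatty acid-binding protein, rose from 72.2, 74.6 and 114 to 216, 242 and 136 CPM (1.197 ± 0.27). All 6 calls held without exp1_2, and for Tnni3, Fbp2, Eno3, Cox7a1 and Fabp3 exp1_2 gave the lowest of the 3 DOX values.

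Lists of growth and stress genes gave 0 or 1 call each, where 3.1% of all tested genes were called. In lists of this size such counts say nothing particular about these programs. Of 23 proliferation genes 0 passed, with log2 fold changes from -0.78 to 0.81. Mki67 had 156, 95.6 and 152 CPM with DOX and 136, 195 and 108 CPM without (-0.13 ± 0.29). Of 16 measured G1 regulators only Ccnd1 passed, of 20 amino acid and ATF4 response genes 0, of 9 Myc family genes 0, and of 18 p53 genes 1. That 1 was Perp, a desmosome-associated target of p53 that also marks epithelia, which fell from 31.1, 29.3 and 21.7 to 6.65, 6.76 and 6.63 CPM (-2.03 ± 0.42). Primitive streak and mesoderm genes gave 0 calls among the 5 measured of 16 listed, germline genes silenced by methylation 0 of 8 (1 of 8, Rhox5, without exp1_2), and the antigen presentation list 0 of 8. That list leaves out H2-Eb1, an MHC class II gene picked after its value had been seen, which was called higher (log2 fold change 5.13). Whether the H2-Eb1 call held without exp1_2 is not given here. A gene that did not pass is not shown to be unaffected.

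**Figure D4:**
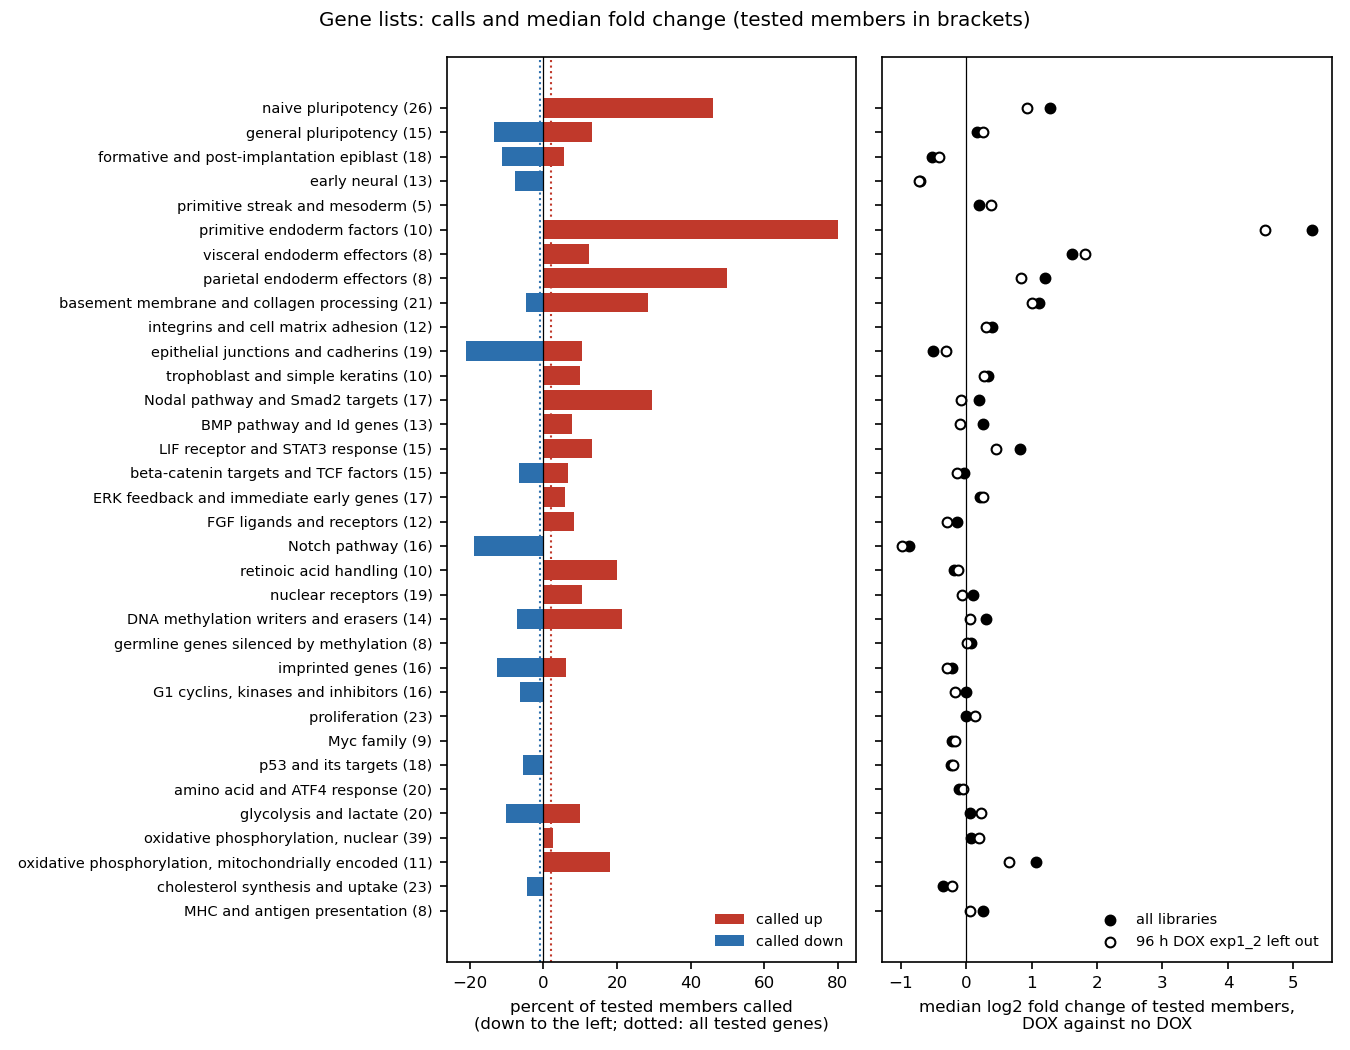
Left, percent of the measured members of each gene list called higher (red, to the right) and lower (blue, to the left) with DOX, with dotted lines at the 2.16% and 0.945% of all tested genes. Right, median log2 fold change of the measured members with all libraries (filled) and without 96 h DOX exp1_2 (open): the naive list stands at 1.28 and 0.93, and the Notch list is lowest at -0.88 and -0.98. The filter favours a high bar and median for the primitive endoderm factors (5.28 and 4.56), since 9 of their 10 measured members entered the test only through the DOX libraries. These values cannot be set beside the other lists.

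Further genes had the largest fitted changes of all that held without exp1_2. Susd3, a small membrane protein with a sushi domain, had 6.65, 21.5 and 7.37 CPM with DOX and no read without (at least 46.7-fold). Tinagl1, a matricellular protein that binds laminin and integrins, had 72 reads with DOX and 1 without, a read ratio of 93.5 (95% exact interval 16.2 to 3742). Atp1a4, a sodium pump subunit known from sperm, rose from 0, 1.08 and 0 to 9.98, 26.1 and 10.3 CPM (5.12 ± 0.97), and Atp4a, the proton pump subunit of stomach, from 0.587, 1.29 and 0 to 39.2, 16.3 and 16.9 CPM (5.104 ± 0.79). Pcdh19, a protocadherin, rose from 1.76, 0.431 and 0.294 to 11.4, 11.7 and 42.7 CPM (4.66 ± 0.73, and 3.78 without exp1_2). Stard8, a GTPase-activating protein, rose from 1.76, 0.863 and 0.294 to 25.2, 22.1 and 13.997 CPM, and Pde8a, a cyclic AMP phosphodiesterase, from 1.17, 0.216 and 2.35 to 16.2, 18.7 and 40.5 CPM (4.37 ± 0.82 and 4.33 ± 0.62). Susd3, Atp1a4 and Atp4a had 2iL means of at most 0.268 CPM. Susd3, Tinagl1, Atp1a4 and Atp4a entered the test only through the DOX libraries, so their low levels in the other groups are part of how they were selected.

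Most of the largest falls outside the lists were of genes that are low in 2iL. Bhlhe41, a circadian helix-loop-helix repressor, fell from 20.8, 9.92 and 30.3 to 2.61, 0 and 2.21 CPM (-3.66 ± 0.86, adjusted p = 0.0204) and had 0.634 ± 0.764 CPM in 2iL. Frzb, a secreted Wnt antagonist, fell from 16.7, 7.55 and 10.9 to 1.901, 0.307 and 0 CPM (-3.63 ± 0.83). Slc5a5, the sodium iodide symporter, fell from 31.7, 77.2 and 17.9 to 7.13, 3.07 and 0.737 CPM (-3.35 ± 0.605), and Myl9, a regulatory myosin light chain of contractile cells, from 40.8, 56.5 and 40.8 to 6.65, 2.15 and 8.84 CPM (-3.04 ± 0.4996). Btbd17 fell from 61.1, 143 and 67.3 to 20.9, 10.1 and 2.95 CPM (-2.88 ± 0.45), Tmem145 from 27.3, 16.4 and 25.9 to 3.56, 2.46 and 4.42 CPM (-2.76 ± 0.56), and Trp53i11 from 162, 100.1 and 139.8 to 23.5, 33.5 and 15.5 CPM (-2.44 ± 0.32). Enho, which encodes the peptide adropin, fell from 37.9, 45.3 and 53.5 to 17.1, 4.61 and 7.37 CPM (-2.18 ± 0.45). All 8 had 2iL means of at most 4.55 CPM. Lhpp, a histidine phosphatase, differed from them: it fell from 18.5, 32.3 and 11.8 to 5.47, 3.995 and 2.21 CPM (-2.32 ± 0.48), below its 2iL mean of 24.8 ± 8.597 CPM as well.

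Abundant genes that fell included proteins of the cell cortex and of cell contacts. Msn, which encodes moesin and ties actin to the membrane, fell from 361, 493 and 407 to 248, 157 and 225 CPM (-1.0003 ± 0.24, adjusted p = 0.0223). Marcks, an actin-binding substrate of protein kinase C, fell from 774, 499 and 747 to 332, 448 and 261 CPM (-0.95 ± 0.25) and did not pass without exp1_2 (adjusted p = 0.0792). The Marcks call was lost in 8 of the 10 fits that left out a library. Ptprf, a receptor tyrosine phosphatase of cell contacts, fell from 631, 484 and 756 to 317, 314 and 147 CPM (-1.26 ± 0.29), and Pclaf, a partner of the replication clamp PCNA, from 371, 341 and 454 to 224, 163 and 83.98 CPM (-1.297 ± 0.29). Pgrmc2, a heme-binding membrane protein, fell by a similar size (-0.97 ± 0.26), did not pass without exp1_2 (adjusted p = 0.0879) and lost its call in 9 of the 10 fits that left out a library. Rising abundant genes were Basp1, a membrane protein of growing axons (328, 339 and 527 against 144, 196 and 109 CPM, 1.41 ± 0.27), and Jade1, a subunit of a histone acetyltransferase (253, 301 and 410.3 against 196, 188 and 127 CPM, 0.91 ± 0.25, and adjusted p = 0.113 without exp1_2). The Jade1 call was lost in 9 of the 10 fits that left out a library, and the Basp1 call in 0.

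Hippo pathway genes, read after their values had been seen, were divided. Tead4 and the coactivator gene Wwtr1 (Taz) rose, Wwtr1 from 12.3, 9.49 and 10.6 to 36.4, 46.4 and 65.6 CPM (2.18 ± 0.34, adjusted p = 0.000621). Tead2, another factor of the same family, fell from 171, 276 and 229 to 127, 102 and 70.7 CPM (-1.16 ± 0.27), and Amotl1, an angiomotin that holds the coactivators at junctions, from 106, 65.8 and 119 to 31.1, 33.8 and 35.4 CPM (-1.54 ± 0.29). All 4 calls held without exp1_2.

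Some of the called rises were not called without exp1_2. The 10 called genes that lost most when it was left out, and lost the call, were Ddr2, Zbtb20, Lgals3, Ly6a, Zeb1, Elf1, Tns1, mt-Nd5, Gata4 and Lmna. Ddr2, a collagen receptor of mesenchymal cells, had 0.475, 5.22 and 36.1 CPM with DOX and 0, 0.863 and 0 CPM without, so that exp1_2 carried most of its level (5.17 ± 1.28, and 2.97 without exp1_2). Zeb1, a mesenchymal zinc finger repressor of E-cadherin, had 9.27, 10.8 and 44.9 against 2.64, 5.61 and 4.11 CPM (2.302 ± 0.58, and 1.25 without). Lgals3, which encodes galectin-3, had 0.951, 6.15 and 39.05 against 1.47, 1.29 and 1.18 CPM (3.395, and 1.37 without), and Lmna, which encodes lamin A, 28.5, 29.2 and 105 against 13.2, 11.9 and 15.6 CPM (1.95, and 1.09 without). Zbtb20, a zinc finger repressor, had 7.13, 10.1 and 105 against 2.06, 4.53 and 2.35 CPM (3.68, and 1.503 without). In these 5 the exp1_2 value exceeded both other DOX values by over 2-fold, in the library with the fibroblast marker sum of 2082 CPM. Col1a1, one of those markers, had 0.951, 14.1 and 549.6 CPM with DOX and did not pass (6.505 ± 2.23, adjusted p = 0.221). Postn, Dcn and Acta2, fibroblast genes with 0, 0 and 55.3, 0, 0 and 29.5 and 0, 0 and 33.2 CPM, were at 0 in both other DOX libraries.

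**Figure D5:**
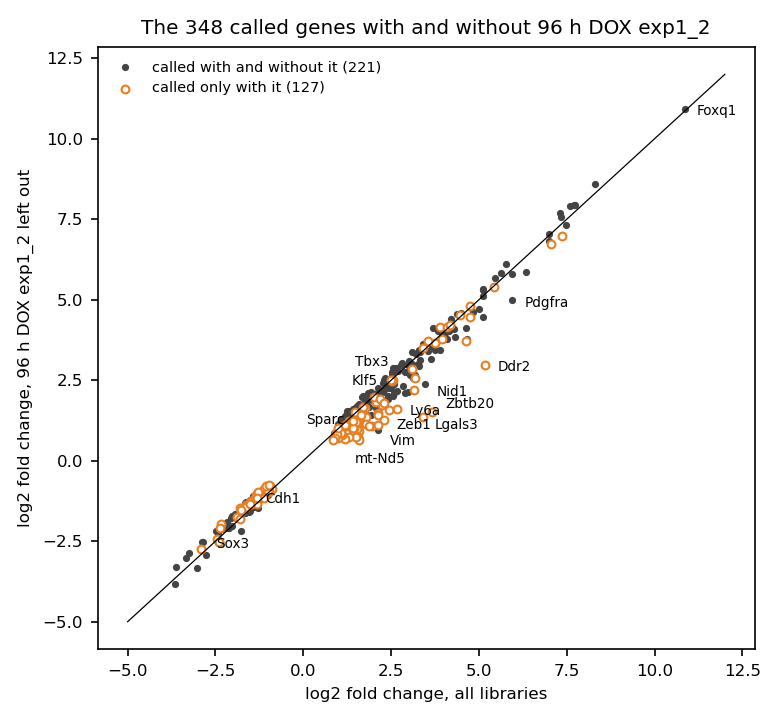
Log2 fold change of the 348 called genes with all libraries (horizontal axis) and with 96 h DOX exp1_2 left out (vertical axis); filled points were called in both fits (221) and open orange points only with it (127). All points keep their direction, most lie near the line of equal values, and Ddr2, Zbtb20, Lgals3, Vim and Nid1 fall farthest below it.

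Esam, an adhesion molecule of endothelium and platelets, was the sole call in the lists of other cell types (24.95, 18.1 and 13.3 against 0.294, 0.431 and 2.35 CPM, 4.21 ± 0.94, and 4.39 without exp1_2). It entered the test only through the DOX libraries. The defining endothelial genes Cdh5 and Erg were near or at 0, Cdh5 with 0.475, 0 and 1.47 CPM with DOX and Erg with no read in any of the 6 libraries, and the sum over 10 endothelial markers was 78.8 to 183 CPM with DOX and 126 to 201 CPM without, so the groups overlapped. Of 16 macrophage and blood markers 1 was measured and 0 passed, and of 10 hepatocyte markers 0 were measured. Runx1, a factor of blood and of several epithelia that was picked after its values had been seen, rose from 0, 2.59 and 0.294 to 11.6, 21.2 and 17.7 CPM (3.96 ± 0.87, adjusted p = 0.0127).

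Promoter windows of the called genes were read for the extended half-site that Esrrb and its relatives bind. The full element searched was TCAAGGTCA and its core was AAGGTCA, on either strand; the core lies inside the full element. RefSeq windows on GRCm38.p6, from 250 bases before to 50 bases after the start, were at hand for 8823 of the 11215 tested genes, and the first window listed was read for each. A RefSeq start can lie inside the gene that GENCODE gives. The core was found in 260 of them (2.95%), in 7 of 171 windows of called rises (4.09%) and in 2 of 79 windows of called falls (2.53%). The full element was in 23 of the 8823 (0.261%) and in 0 windows of called genes. Esrrb is known to bind mostly at distal enhancers, which these windows do not cover, and no binding was measured.

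The stretches around the core are shown for Lifr, which rose and is described above, and for Taok3, added after its values had been seen because it holds a pair of copies. Each reads 5′ to 3′ on the plus strand, the strand of its gene, and ends before the RefSeq start, with the core in capitals (TGACCTT is the core read from the other strand).
Lifr chr15:7129322-7129371, plus strand: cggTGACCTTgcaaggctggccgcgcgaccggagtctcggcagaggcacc
Taok3 chr5:117119953-117120092, plus strand: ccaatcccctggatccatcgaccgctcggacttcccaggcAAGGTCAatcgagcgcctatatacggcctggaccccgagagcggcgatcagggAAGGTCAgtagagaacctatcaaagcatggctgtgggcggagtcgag
The first base of the core lies 247 bases before the start of Lifr and, for the first copy, 136 bases before that of Taok3. RefSeq lists 2 windows for Lifr, and the one shown lies inside the gene as GENCODE gives it, which begins at 7090614. Taok3, a stress-responsive kinase, rose by 1.73 ± 0.38 on the log2 scale (43.7, 29.2 and 92.1 against 16.7, 17.9 and 14.1 CPM) and did not pass without exp1_2 (adjusted p = 0.0821). The window of Triml2, a rise described below, also holds 2 copies of the core. The last of them begins 3 bases before the start, and that stretch is not shown. With 7 and 2 windows, nothing more is read from the shares above.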

How the data were processed

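The authors deposited read counts per gene for each of the 10 libraries, made from 3′ digital gene expression reads of polyA RNA. The submitters' processing notes name bcl2fastq, STAR 2.6.0a, HTSeq and mm10; no source used here gives the annotation release or whether counting used strand. The 5 HTSeq summary lines were removed (62.7% to 68.4% of all reads, mostly reads with several alignments). Files held 31053 genes, of which 30934 matched a symbol, and positions came from GENCODE vM21.

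Genes were kept with filterByExpr (minimum count 10; about 3.00 CPM), scaled by TMM and fitted with edgeR 4.0.16 (R 4.3.3) quasi-likelihood tests over all 10 libraries in 3 groups. Calls had a Benjamini-Hochberg adjusted p below 0.05. SE is the fold change divided by the root of F. Bounds and exact 95% intervals on reads cover counting error only. DESeq2 1.42.0, limma-voom (limma 3.58.1), other filters, scalings, blocks and left-out libraries were alternatives. The procedure was tested on simulated data. Of 348 called genes, 45 have another gene on the opposite strand over their last 500 bases, and their reads cannot be told apart without strand. Those named include Col4a1, Ccnd1, Chchd10, Cubn, Bmp4, Esrp1, Meg3, Ncoa3, Slc2a1, Ddr2, Klf7, mt-Co1 and mt-Nd5. They also include Cldn3, Doc2a, Enho, Lhpp, Pclaf, Tead2, Nid2, Flrt3, Fabp3 and Nefl.

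The 40 gene lists, the comparison and the alternatives were chosen with earlier results of these data known. Named genes were Esrrb, up to 6 genes per list (called genes by size, then the most abundant), the 15 largest rises and 15 largest falls that held without exp1_2 at 10 CPM or more without overlap, the 10 most abundant calls each way, and the 10 calls that lost most without exp1_2. Others are named as chosen after their values were seen, as are list members given beyond those 6. A few list members that passed are counted but not reported here by name.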

Additional observations from a re-analysis of the deposited data

How the results depend on the processing

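The 348 calls (242 higher, 106 lower) were 564 (367 and 197) with no filter on low counts, 563 (377 and 186) with DESeq2, which left 14 adjusted p undefined, 212 (149 and 63) with only the 6 libraries at 96 h, and 108 (94 and 14) within experiment 1. An alternative added after seeing the data, the 5 libraries at 96 h without DOX exp1_2, gave 218 (157 and 61). Leaving out 1 library at a time gave 161 to 358 calls, 117 to 243 higher and 42 to 115 lower. The lowest totals came without noDOX exp1_1 (161) and noDOX exp2_2 (181), and without DOX exp2_1 the falls numbered 52. Without DOX exp1_2, 260 calls became 419 with no filter. RLE and upper quartile scaling, a filter of 30 reads, limma-voom and removal of Gm42418 with the mitochondrial genes left all 3 counts within 1.5 times. No called gene changed direction in any fit that was compared gene by gene (DESeq2, limma-voom, no filter, 6 or 5 libraries, experiment 1, both blocks, without DOX exp1_2).

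Library numbers were not taken to pair the samples, though so few libraries cannot exclude pairing. Deviations from the group means correlated at -0.095 between the libraries exp1_1 with and without DOX, and at 0.054 between the exp1_2 libraries. Over the same-number pairs that include 2iL the correlation ran from -0.020 (exp2_2 without DOX) to 0.205 (exp1_2 without DOX). The experiment as a replicate block gave 347 calls (241 and 106), and experiment and number as a replicate block gave 159 (125 and 34), of which 156 were among the 348. The difference between experiments called 0 genes in each of 3 alternatives, with 612 (RLE), 398 (filter of 30 reads) and 627 (without DOX exp1_2) genes at an unadjusted p below 0.05. Depth limits the low genes: exp1_2, with 1253620 reads, is the shallowest library, and in 10 rises no read was found without DOX.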

Other observations

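Some called genes that no list covers are given as values, chosen after they were seen. Khdc3 and Trim family genes of oocytes and early embryos were among the rises: Khdc3 went from 2.06, 1.94 and 0.881 to 3.802, 15.98 and 8.84 CPM (log2 fold change 2.498 ± 0.53), Triml1 from 5.58, 2.37 and 11.5 to 29.5, 34.1 and 77.4 CPM (2.85 ± 0.46) and Triml2 from 25.8, 18.1 and 27.03 to 63.2, 73.1 and 74.4 CPM (1.57 ± 0.25). Mme, the membrane protease neprilysin, rose from 2.06, 4.96 and 0.588 to 29.7, 44.9 and 65.6 CPM (4.09 ± 0.47), near its 2iL mean of 47.8 ± 4.72 CPM, and Ntn1, the guidance cue netrin-1, from 2.64, 7.76 and 0.588 to 19.96, 32.9 and 21.4 CPM (2.69 ± 0.64). Trh, which encodes the precursor of thyrotropin-releasing hormone, rose from 104, 115 and 61.7 to 254, 297 and 144 CPM (1.31 ± 0.28). These 6 calls held without exp1_2 (edgeR's quasi-likelihood test).

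Among the falls outside the lists, Arl4c, a small GTPase of membrane traffic, went from 336, 303 and 438 to 133, 83.3 and 42.7 CPM (-2.03 ± 0.32) and Hmgn5, a nucleosome-binding protein, from 522, 450.5 and 269.99 to 147, 89.4 and 113 CPM (-1.83 ± 0.28). Klf7, a Krüppel-like factor of neurons, fell from 133, 96.6 and 164 to 48.95, 51.6 and 47.9 CPM (-1.401 ± 0.25), while Klf4 and Klf5 rose and Klf2 did not pass. Vrtn, a factor of axial patterning, fell from 104, 52.8 and 113 to 32.8, 34.1 and 19.9 CPM (-1.61 ± 0.34), and Gadd45g, a growth arrest gene of early neural cells, from 115, 107 and 93.1 to 48.5, 48.2 and 26.5 CPM (-1.33 ± 0.27). These 5 calls also held without exp1_2.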
